A study of Pimephales promelas with 15 samples.

Results

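Larvae that carried the lower of the analysed maternal burdens of hexabromocyclododecane (HBCD) were compared with larvae of solvent-fed parents, across all transcripts measured. The comparison used the 10 libraries named low and solvent control, 5 in each group, out of 15 in the series. The libraries were chosen by their labels and not by any measured value. The organism was the fathead minnow (Pimephales promelas), and each library was made from a pool of 20 whole larvae taken 7 days after fertilization.

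Adult fish had been fed HBCD or solvent only for 49 days, and fertilized eggs were collected between day 25 and day 42 of that feeding. Parents of the low group received 11.5 mg HBCD per kg of food, and their larvae contained 0.576 mg HBCD per kg wet weight. The control parents received food treated with ethanol that had been evaporated, and HBCD in the control larvae was reported as below the detection limit. All offspring in both groups were reared in clean water at 23 °C, so the larvae met HBCD through the egg. A medium group, at 36.4 mg per kg of parental food and 1.77 mg per kg in the larvae, contributed to the estimate of the spread between libraries and is otherwise used only as context. Separate parents or tanks for each pool are not stated in the labels. Effects of the diet and of the parents or clutches of a group therefore cannot be told apart, and p-values measure the spread between pools, which may be technical.

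HBCD is a brominated flame retardant used in polystyrene insulation. It is fat-soluble, persists in the environment and builds up in fish, and females pass such compounds to their eggs with the yolk lipids on which the embryo and early larva feed. In fish HBCD is known for effects on the thyroid axis, and in rats for the induction of liver enzymes that metabolise foreign compounds. Which of the measured transcripts belong to those systems could not be looked up here. Transcripts were quantified against targets with protein identifiers, 8289 in the UniProt form, 2133 in the RefSeq NP form and 3857 in the RefSeq XP form. The files do not pair these identifiers with gene names, and 0 of 14279 matched the reference table of 64593 fathead minnow genes. Results are therefore given for the set of targets as a whole and for 4 targets by identifier, and the labelled tissue, the whole body, could not be checked against marker genes.

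Libraries of low HBCD larvae held 12.8 to 35.2 mega-counts (M) and those of controls 13.03 to 58.4 M. Counts thinned to the smallest total detected 13505 ± 74.5 targets (SD, n = 5) per low library and 13515 ± 89.5 (SD, n = 5) per control (exact permutation p = 0.857, two-sided). Solvent control replicates D and E were the deepest libraries and also the most alike of all pairs within the 2 groups. The chi-square per degree of freedom between their counts was 16.3, and all pairs of the 10 libraries lay between 16.3 and 127. For whole counts, sampling alone gives about 1. The counts here are estimates, and the part of dividing reads among similar sequences in this value was not tested. The value does not show that D and E are independent pools, and they were kept as labelled, as 2 libraries. Numbers of targets called, at an unadjusted p under 0.05 and with ranges that do not overlap are given with and without controls D and E. The likeness of pools, the library measures and the counts of identifiers found in 1 group alone are given only with them.

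Most transcripts differed little between low HBCD and control larvae, and few differences passed the test. Of 13283 targets tested, 2 rose and 5 fell (edgeR quasi-likelihood test, adjusted p under 0.05), which are 0.0151% and 0.0376% of the targets and 0.0527% together. A fit on the 10 libraries alone called 0, and the values that follow are from the fit on all 15. Over all targets the log2 fold change had a median size of 0.12, and 95% lay below 0.65. A fitted change beyond 2-fold was found for 291 targets, 143 higher and 148 lower in low HBCD. Of these 291, 92 reached an unadjusted p under 0.05 and 4 passed the adjusted test. In whole-body pools, fewer cells of a type and less RNA per cell cannot be told apart.

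The precision of the comparison set how large a change could have been missed. For 8718 targets, 65.6% of those tested, the whole 95% interval was within 1.5-fold in either direction. That share was 21.8% in the lowest quartile of targets by level, with mean levels of 0.248 to 9.81 counts per mega-count (CPM), and 87.4% in the highest quartile, above 65.6 CPM. Fitted changes beyond 2-fold made up 7.56% of the lowest quartile and 0.12% of the highest, and the part of precision in this difference was not tested. Intervals within 2-fold were reached by 97.6% of the most abundant quartile and by 53.1% of the least abundant one.

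**Figure D1:**
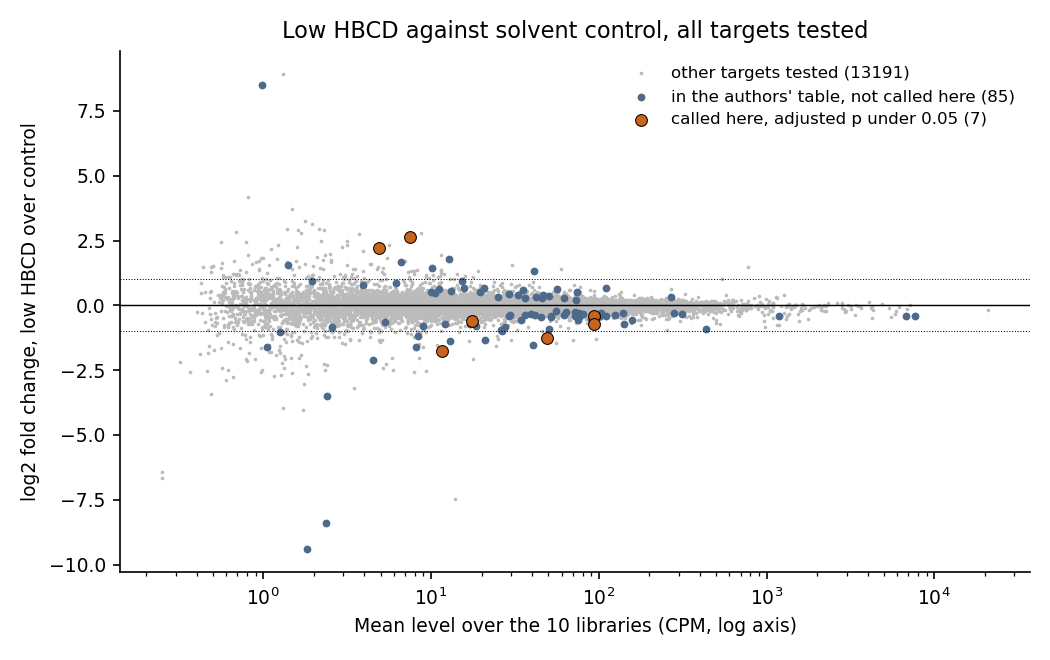
Each point is a target, placed by its mean level over the 10 libraries (CPM, log axis) and by its fitted log2 fold change of low HBCD over solvent control; dotted lines mark 2-fold. The 7 targets called here, in orange, include 2 above 2-fold and 3 whose size is below 1 on the log2 scale, and the scatter of all targets narrows as the level rises.

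The first target that rose was XP_021327233.1. Its level was 18.9, 12.2, 13.1, 12.4 and 8.07 CPM in low HBCD replicates A to E, and 4.54, 2.42, 1.24, 1.31 and 1.20 CPM in solvent control replicates A to E. Every low HBCD library lay above every control, with replicate A the highest of both groups. The log2 fold change was 2.62 (SE 0.37, edgeR adjusted p = 0.03109), a ratio of 6.16 with a 95% interval of 3.56 to 10.7. In the medium group the level was 1.39 to 2.50 CPM, within the control range of 1.20 to 4.54 CPM.

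The level of XP_021327233.1 is the sum of 3 rows of the deposited table that share this identifier, and the rows did not contribute equally. Row 2 went from 0.609 ± 0.775 CPM in the controls to 8.59 ± 2.74 CPM in low HBCD (SD, n = 5 each), and it held 58.7 to 76.8% of the target's counts in the low HBCD libraries. Row 1 went from 1.12 ± 0.321 to 2.58 ± 1.45 CPM and row 3 from 0.415 ± 0.836 to 1.77 ± 0.354 CPM (SD, n = 5 each). Tested as separate rows, none of the 3 passed, with edgeR adjusted p = 0.3798 for row 1, 0.06807 for row 2 and 0.6562 for row 3. Rows under one identifier may be similar sequences, among which an estimated count divides the reads.

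The second target that rose, XP_021325593.1, was measured at 6.86, 8.50, 11.05, 7.30 and 6.22 CPM in low HBCD replicates A to E. The controls A to E had 1.44, 2.79, 2.63, 1.35 and 0.516 CPM. The lowest low HBCD library was again above the highest control. The log2 fold change was 2.23 (SE 0.37, edgeR adjusted p = 0.04636), a ratio of 4.69 with a 95% interval of 2.72 to 8.09. The medium group had 4.08 to 7.49 CPM, summed over the rows of this target, above the controls. Its log2 fold change against control was 1.61 (95% interval 0.83 to 2.38) and did not pass (edgeR adjusted p = 0.1944).

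Behind the even total of XP_021325593.1, different rows were high in different pools. It is the sum of 4 rows. Row 1 held 85.5%, 67.6% and 86.5% of its counts in low HBCD replicates A, C and D, but 3.91% and 6.17% in replicates B and E. Row 2 held 91.3% and 83.8% in replicates B and E and 14.2%, 9.63% and 11.6% in replicates A, C and D. In the controls row 1 was at 0.163 to 0.972 CPM and row 2 at 0.277 to 1.81 CPM, below the low HBCD pools in which each was high. Neither row passed as a separate target (edgeR adjusted p = 0.4362 for row 1 and 0.4212 for row 2). Rows 3 and 4 reached at most 2.45 CPM in any low HBCD or control library. For row 3 the log2 fold change of low HBCD over control was 0.2024 (edgeR adjusted p = 0.9839). In the medium group row 3 was the highest row in replicates A, D and E, at 3.761, 4.803 and 1.882 CPM. Row 1 was at 0, 0.2713 and 0.2964 CPM there. It was the highest row in medium replicates B and C, at 2.387 and 3.445 CPM. The medium total therefore came partly from a different row than the rise in low HBCD. Low HBCD replicates A, C and D were also the 3 deepest low HBCD libraries, at 20.0, 35.2 and 26.3 M for A, D and C against 13.3 and 12.8 M for B and E, and the part of depth in the choice of row was not tested.

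**Figure D2:**
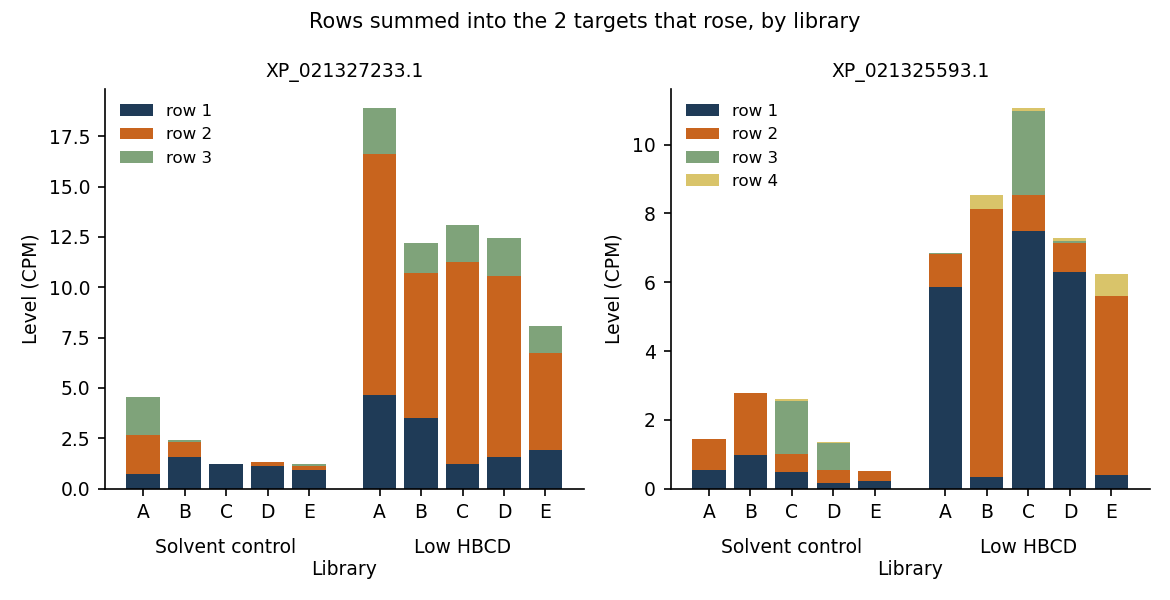
Stacked bars give the level (CPM) of each table row summed into XP_021327233.1 (left) and XP_021325593.1 (right), for solvent control and low HBCD replicates A to E. The bulk of XP_021327233.1 in low HBCD is row 2 in all 5 pools, while XP_021325593.1 is mostly row 1 in replicates A, C and D and mostly row 2 in B and E.

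Of the targets that fell, Q6P0S5 had the smallest p. It was at 5.25, 5.62, 5.91, 3.70 and 6.15 CPM in low HBCD replicates A to E, and at 19.4, 26.3, 15.6, 16.8 and 12.3 CPM in the controls A to E. The 5 low HBCD pools lay close together, and all were below the lowest control. The log2 fold change was -1.76 (SE 0.25, edgeR adjusted p = 0.03109), so the control level was 3.39 times that of low HBCD. The medium group spread from 7.39 to 19.4 CPM, overlapping the controls.

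NP_001095858.1, the next to fall, was a more abundant target. Low HBCD replicates A to E had 84.7, 77.9, 66.5, 73.6 and 49.8 CPM, and the controls A to E 116, 118, 128, 112 and 111 CPM. The controls were tight, at 117 ± 6.54 CPM (SD, n = 5), and the highest low HBCD pool was below all of them. Its log2 fold change was -0.73 (SE 0.11, edgeR adjusted p = 0.04636), a ratio of 0.603 with a 95% interval of 0.511 to 0.713. The medium pools, at 98.5 to 119 CPM, overlapped the controls through medium replicate D alone. Medium replicates A, B, C and E were at 99.9, 111.2, 110.5 and 98.5 CPM, below the lowest control at 111.4 CPM. The log2 fold change of medium against control was -0.12 (95% interval -0.36 to 0.12, edgeR adjusted p = 0.9261). Q6P0S5 and NP_001095858.1 each came from a single row of the table.

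**Figure D3:**
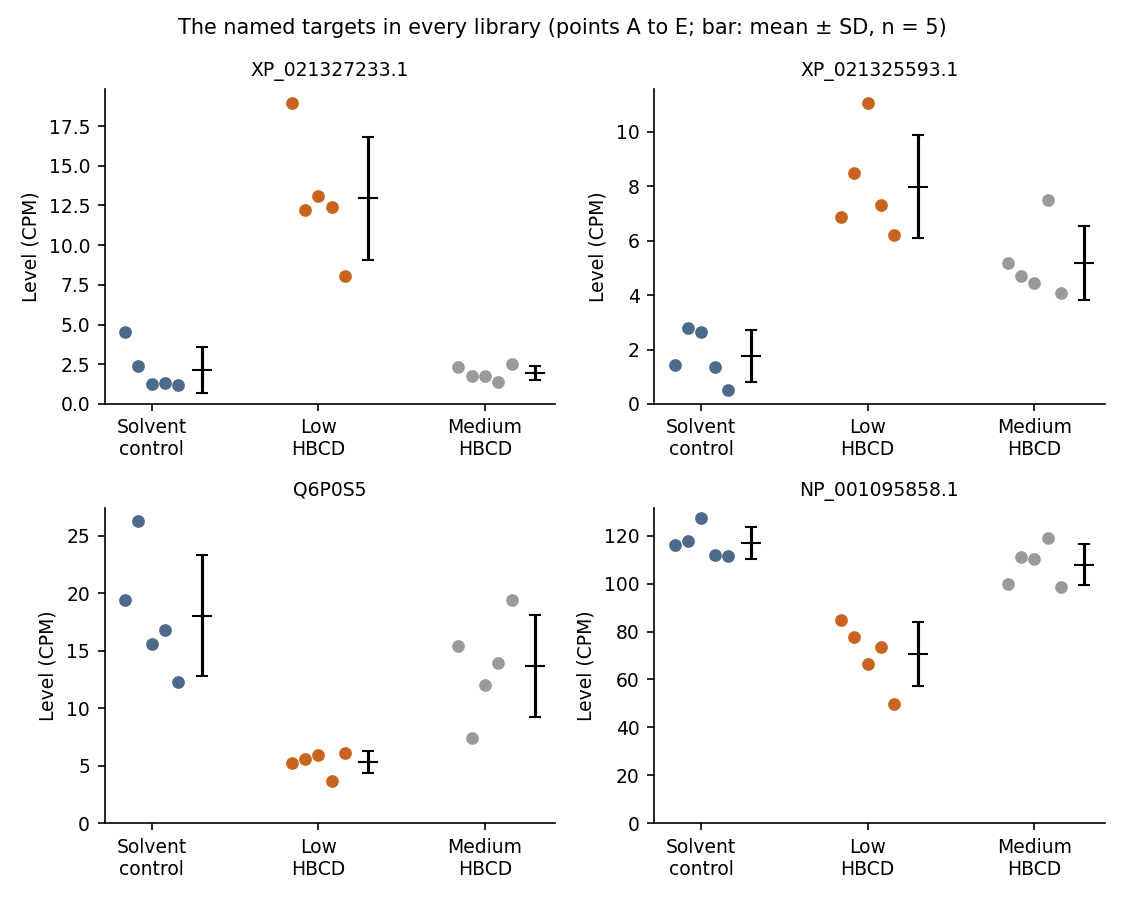
Levels (CPM, from 0) of the 4 named targets in every library, with points for replicates A to E from left to right and a bar for the mean ± SD of 5 libraries. In each panel the low HBCD points lie wholly above or wholly below the solvent control points; the medium HBCD points are shown for context.

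The other 3 targets that fell had log2 fold changes of -1.27, -0.41 and -0.62 (SE 0.21, 0.07 and 0.10, each with edgeR adjusted p = 0.04636). Their control means were 69.8 ± 11.7, 106 ± 5.71 and 21.2 ± 3.05 CPM, and their low HBCD means 29.08 ± 10.04, 79.9 ± 7.40 and 13.8 ± 1.23 CPM (SD, n = 5 each). In each of the 3 the groups did not overlap. The second was also lower in the medium group, at 69.0 to 75.3 CPM against a lowest control of 99.2 CPM (log2 fold change -0.54, edgeR adjusted p = 0.01178). It was the 1 target of the 7 that passed there as well, in a comparison that shares these controls. In the medium group the first was at 44.2 to 65.7 CPM (log2 fold change -0.31, interval -0.75 to 0.12, edgeR adjusted p = 0.8827). These pools overlapped control replicate A, at 49.1 CPM, and were all below control replicates B to E, at 73.3 to 77.4 CPM. The third was at 15.4 to 16.5 CPM in the medium group (log2 fold change -0.40, interval -0.61 to -0.18, edgeR adjusted p = 0.2731). It did not pass, although both ends of its interval were negative. Its overlap with the controls was medium replicate C at 16.53 CPM against control replicate A at 16.43 CPM. Medium replicates A, B, D and E were below every control. The first was the sum of 2 rows, and the fall was in row 1, which went from 64.6 ± 10.9 to 23.5 ± 10.1 CPM, while row 2 was at 5.22 ± 1.19 and 5.63 ± 0.769 CPM (SD, n = 5 each). The second was the sum of 3 rows, of which row 1 went from 97.7 ± 6.33 to 71.9 ± 8.81 CPM (SD, n = 5 each) and rows 2 and 3 reached at most 9.62 CPM. Both of these multi-row targets therefore owed their change mainly to 1 row. Tested as a separate row, row 1 of the first passed (edgeR adjusted p = 0.04084) and row 1 of the second did not (edgeR adjusted p = 0.05918).

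Of the 7 targets called, 4 were sums of several rows, as were 762 (5.74%) of all targets tested. Of the 136 targets tested that were sums of 3 or more rows, 19.9% had an unadjusted p under 0.05 and 3 were called. Among the 626 sums of 2 rows these values were 7.35% and 1, and among the 12521 targets on 1 row 7.53% and 3. The log2 fold change had a median size of 0.179 for the sums of 3 or more rows, 0.116 for the sums of 2 and 0.117 for single rows. By form of identifier the shares at an unadjusted p under 0.05 were 7.32% for UniProt, 8.62% for RefSeq NP and 7.81% for RefSeq XP. None of these differences between classes was tested.

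At the lenient limit of an unadjusted p under 0.05, 465 targets were higher (3.5%) and 551 lower (4.15%) in low HBCD, 7.65% of those tested. Ranges that did not overlap between the 5 low HBCD and 5 control libraries were found for 203 targets (1.53%), 90 higher (0.678%) and 113 lower (0.851%), and these included all 7 targets called. Of the 203, 182 also reached the lenient limit. By level, the lenient targets were nearly even in the lowest quartile, 110 higher and 111 lower, and leaned lower in the highest quartile, 107 higher and 173 lower. With DESeq2 size factors the highest quartile held 110 higher and 173 lower, with upper quartile scaling 117 and 171, and without both deepest controls 41 and 119. With library totals alone, without the TMM factors (weights that correct for a few abundant transcripts), the median log2 fold change of all targets moved from 0.01 to 0.05, the lenient split became 848 higher and 346 lower, and the highest quartile turned to 237 higher and 107 lower.

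The make-up of the libraries was compared by summary measures. The TMM factor was 1.03 ± 0.0205 in low HBCD and 0.993 ± 0.00617 in the controls (SD, n = 5 each). The 100 most counted targets of a library took 25.0 ± 1.83% of its counts in low HBCD and 26.5 ± 0.585% in the controls (SD, n = 5 each), with a control range of 25.9 to 27.2%. Low HBCD replicates A, C, D and E were below that range, at 25.4%, 22.6%, 23.9% and 25.5%, and replicate B was above it, at 27.5%. Of 5 such library measures compared, none passed after adjustment. The exact permutation p was 0.0238 (two-sided, Benjamini-Hochberg adjusted 0.119) for the TMM factor and 0.135 (adjusted 0.251) for the share of the 100 targets, where the smallest p that 5 against 5 allows is 0.00794. The measures were chosen after the libraries had been seen.

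The likeness of the pools was described over all targets. The SD over targets of the log2 difference between 2 libraries had a median of 0.889 within low HBCD, 0.842 within the controls and 0.858 between the groups. The most similar library of low HBCD replicates A, C and D was another low HBCD library, whereas that of replicates B and E was solvent control replicate E. Among the controls, replicates A, C, D and E were nearest to another control, which was D or E in each case. Control replicate B was nearest to low HBCD replicate D. All these nearest libraries were among the 4 deepest of the 10, with totals of 26.3 to 58.4 M, and the part of depth in this measure was not tested. The first principal component, with 19.8% of the variance, placed solvent control replicate B and low HBCD replicate B at opposite ends and did not separate the groups. The third, with 13.8%, placed low HBCD replicates A to D at 18.9 to 28.6, above all controls, whose highest value was 4.02, and low HBCD replicate E at -24.4, among the controls.

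The number of targets called changed with single pools. When low HBCD replicate A, C or D or control C or D was left out, edgeR called 0, and the targets at an unadjusted p under 0.05 numbered 973, 945, 773, 862 and 796. In the absence of control B the calls were 1, with 0 of the 7 of all libraries among them. In that of control E they were 5, of which 3 were among the 7. The calls were 12 in the absence of low HBCD replicate E and 18 in that of control A, each with 6 of the 7. Leaving out low HBCD replicate B gave 7 calls, 5 of them among the 7 of all libraries. Without both deepest controls 1 target was called, and it was none of the 7. All 7 kept their direction in each of the 23 alternatives in which all could be followed. Leaving out libraries could not reverse a direction, because low HBCD and control ranges did not overlap for any of the 7. The alternative that changed only the threshold left the fitted values as they were. Among the 4 named targets, the log2 fold change ranged from 2.24 to 3.31 for XP_021327233.1 and from 1.80 to 3.23 for XP_021325593.1. It ranged from -1.94 to -1.59 for Q6P0S5 and from -0.81 to -0.63 for NP_001095858.1. All 7 calls lay near the threshold, with edgeR adjusted p from 0.03109 to 0.04636, and were selected by that value in these same libraries.

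**Figure D4:**
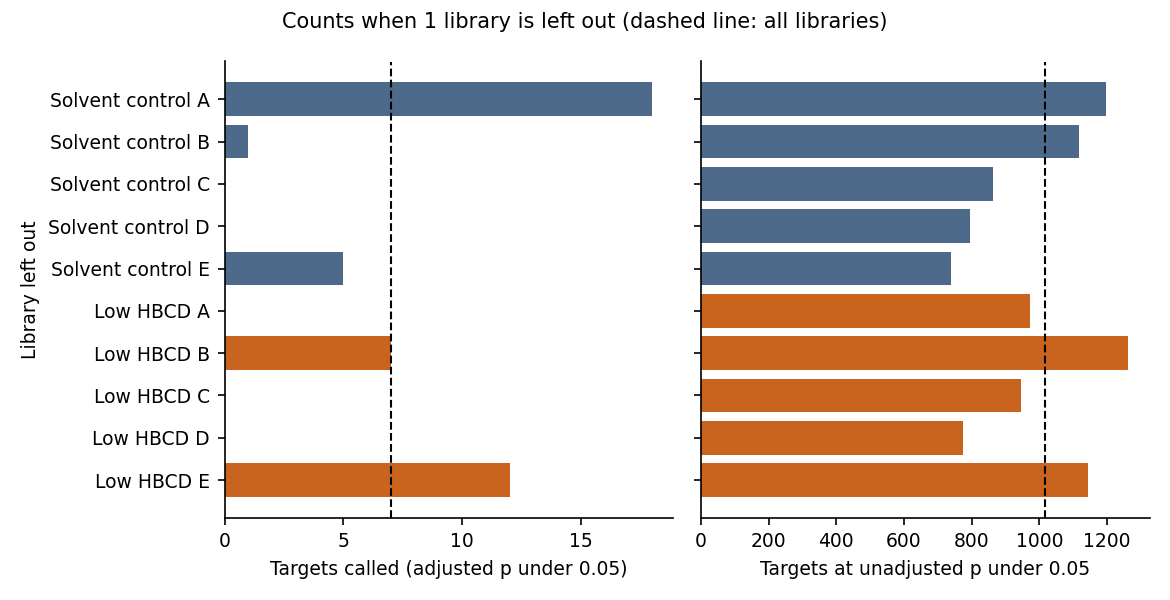
Horizontal bars give the number of targets called at an adjusted p under 0.05 (left) and the number at an unadjusted p under 0.05 (right) when the library named on the axis is left out, with dashed lines at the 7 and 1016 of the full set. The calls range from 0 to 18, and the lenient count from 738 to 1263.

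From their own DESeq2 comparison of these groups the authors reported 99 targets, of which 38 were higher and 61 lower in the authors' deposited table. Most listed changes were small: 47 of them in the authors' deposited table were below 1.5-fold and 23 between 1.5-fold and 2-fold, while 20 had a log2 size from 1.02 to 3.54 and 9 one of 5.25 to 23.5. The targets below 1.5-fold had a median of 1240 for the mean normalized count in the authors' deposited table, against 33.2 for the 9 of extreme fold change. Of the 99, 92 were tested here. At an edgeR adjusted p under 0.05, 7 of them were called, which are all 7 calls made here. Under 0.10 the number was 21. All 92 had the listed direction, but the list came from the same counts and contrast, which already favours that. Ranges of the 2 groups did not overlap for 61 of the 99, against 1.53% of all targets tested, and being listed for this contrast already favours that.

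Within the list, separation of the pools was least where the listed fold change was greatest. Ranges did not overlap for 29 of the 47 targets below 1.5-fold, 14 of the 23 up to 2-fold and 17 of the 20 above, but for 1 of the 9 of extreme fold change. Of those 9, 8 had a rounded count of 0 in at least 1 library, which none of the other 90 had.

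The pools behind these extreme values were uneven. The target with the highest value in the authors' deposited table, a log2 fold change of 22.1, had 210 estimated counts in low HBCD replicate A and 79.3 in replicate C, and under 1 count in each of the other 8 libraries. The next, at 20.5 in the authors' deposited table, had 43.7 counts in low HBCD replicate A and 28.2 in replicate E, and under 1 elsewhere. The target listed at 7.94 in the authors' deposited table, had 59.1, 53.4, 55.7 and 25.4 counts in low HBCD replicates B to E and 0 in replicate A and in all controls. The entry at 5.91 in the authors' deposited table had 234 counts in low HBCD replicate C and 145 in replicate E. It had at most 3.66 in the other libraries of the 2 groups. Both targets above 20 and the one at 5.91 thus rested on 2 of 5 pools.

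On the falling side, the most extreme entry, -23.5 in the authors' deposited table, had 62.3, 88.8 and 393 counts in solvent control replicates A, C and E, under 1 in controls B and D, and 0 in every low HBCD pool. In the edgeR fit it had an unadjusted p of 0.02168 and an edgeR adjusted p of 0.5559. The entry at -8.47 in the authors' deposited table was the 1 of the 9 without overlap: its controls A to E had 112, 64.0, 1.53, 277 and 270 counts, and no low HBCD pool reached 1 count. That target had an edgeR adjusted p of 0.0729. The entry at -5.25 in the authors' deposited table had 6.41, 4.83, 8.08 and 39.8 counts in controls B to E and under 1 in control A and in every low HBCD pool. The entry at -9.135 in the authors' deposited table had 64.4, 60.8, 292 and 571 counts in controls B to E, 0 in control A and under 1 in every low HBCD pool. An entry at -7.64 in the authors' deposited table had 481 and 428 counts in the deep controls D and E, 56.4 in C and at most 2.31 in A and B.

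**Figure D5:**
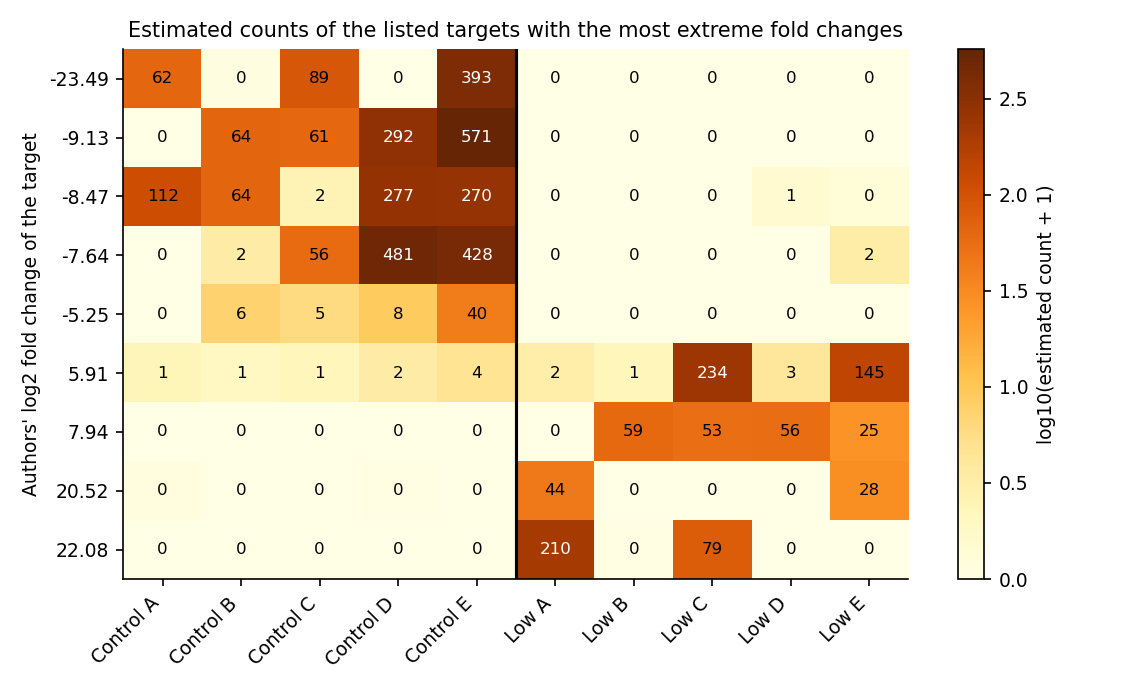
Rows are the 9 targets with a log2 fold change of 5 or more in size in the authors' deposited table, ordered by that value, and columns are the 5 solvent control and 5 low HBCD libraries. Numbers are estimated counts, rounded, and the colour is log10 of the count plus 1; for the entries at 20.52 and 22.08, 2 low HBCD libraries carry all of the visible counts.

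Over all 14279 identifiers, complete switches between the groups were rare. After rounding, 12768 identifiers had a count in all 10 libraries. In all 5 low HBCD pools and no control, a count was found for 0 identifiers, and in all 5 controls and no low HBCD pool for 1. With 4 or 5 libraries of a group the numbers were 4 for low HBCD alone and 7 for the controls alone. Controls D and E, at 49.3 and 58.4 M, were the deepest libraries, and the part of depth in these numbers was not tested.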

How the data were processed

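Polyadenylated RNA of whole larval pools was sequenced from strand-preserving libraries, per the labels' protocols. The submitters' processing notes name Trim Galore, kallisto and DESeq2, without versions; the sequences that kallisto was run against are not stated in the labels. The authors deposited estimated counts per target, not normalized. Their low HBCD table gives, per the file headers, a mean normalized signal (the normalized count), log2 fold changes, a test score and p-values.

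Counts of the 793 identifiers on several of the 15551 rows were summed and rounded. Changes were tested in R 4.3.3 with edgeR 4.0.16 (quasi-likelihood F test, TMM, filterByExpr, robust dispersions, all 15 libraries, Benjamini-Hochberg over 13283 targets, threshold 0.05). Standard errors come from the F statistic, and intervals cover 95%. The filter left out 996 identifiers, 136 of which had no count at all. The test was tried on simulated data. Named targets are the 2 of smallest p that rose and the 2 that fell. Comparison, tests and rule were chosen with earlier results of these data known. Alternatives included DESeq2 1.42.0, limma-voom (limma 3.58.1), other scalings, filters and thinning, a replicate block, and leaving out libraries. Pools with the same replicate letter were not paired: their deviations from the group means correlated between -0.134 and 0.099.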

Additional observations from a re-analysis of the deposited data

Results flagged for a closer look

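The 5 library measures and the levels of the 7 targets called were searched in the low HBCD and the control group, 24 sets of 5 libraries in all, for a library whose gap to its nearest neighbour exceeded 0.71 of the range. Chance passes that limit in about 1 of 20 sets, and 1 of the 24 passed it. In the target that fell by 1.27 on the log2 scale, solvent control replicate A was at 49.1 CPM, while the nearest control was at 73.3 CPM and the low HBCD pools reached at most 41.3 CPM.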

How the results depend on the processing

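Counts of targets called, against 7, were 97 with DESeq2 (98% of the authors' deposited list), 26 with limma-voom (25.3%), 571 with limma-voom and sample quality weights (86.9%, with 2914 targets at an unadjusted p under 0.05) and 21 at a threshold of 0.10 (21.2%). A fit on the 10 libraries gave 0 (0% of the list, 960 targets at an unadjusted p under 0.05), library totals without TMM 2, and leaving out both deepest controls 1 (0% of the list, 653 targets at the lenient limit, 414 with ranges that do not overlap). Rows as deposited, without summing, gave 9, 1 higher and 8 lower, against 2 and 5. Thinning as planned gave 7, of which 6 were among the 7 called without thinning. The 5 further draws, chosen after the data were seen, gave 0, 1, 3, 7 and 4. With the replicate letter as a replicate block 1 target was called (1.01% of the list); 2 of 5 low HBCD libraries correlated best with their own letter.

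Leaving out 1 library gave 0 to 18 calls, 0 to 15.2% of the list and 252 to 512 targets with ranges that do not overlap. Fewer libraries widen this last count by construction; the other causes were not tested. DESeq2 size factors, upper quartile scaling, no filter and the stricter filter each called the same 7. The log2 fold change had a median size between 0.115 and 0.135 in these alternatives.

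The call was lost in 8 of 23 alternatives for XP_021327233.1, 12 of 23 for XP_021325593.1, 9 of 24 for Q6P0S5 and 11 of 24 for NP_001095858.1, with edgeR adjusted p up to 0.1987. In the same order, 6, 8, 6 and 7 of these losses came when each of the 10 libraries was left out in turn. The first 2 targets have several rows and no value in the alternative without summing. The threshold of 0.10 is among these alternatives, and a call at 0.05 cannot be lost there. Scarce targets limit the depth: in the lowest quartile by level, 53.1% had an interval within 2-fold.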
